A study of Mus musculus with 8 samples.

Results

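The outer downstream flank of *Ikzf1* is the 645-kb stretch of mouse chromosome 11 that begins directly beyond *Grb10*, 355 kb from the 4C bait at the *Ikzf1* promoter, and ends 1000 kb from it (mm9, chr11:11938687-12583520). A DpnII fragment, the piece of DNA between neighbouring GATC sites, was taken as a member when its midpoint lay within these bounds. This gave 1611 of the 295446 fragments that the deposited 4C files list for chromosome 11, the same 1611 in all 6 libraries. Their median length was 264 bases, with a range from 9 to 3210, and 732 of them (45.4%) held a GTAC site of Csp6I, the enzyme of the second digestion. The choice rested on position alone and on no measured value.

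The study asked which enhancers contact the *Ikzf1* promoter in T cell precursors, and what the deletion of the enhancer IkE120 changes. The 4C-seq libraries were DN3 thymocytes, sorted from the thymus of young wild-type C57BL/6 mice and labelled CD4-/CD8-/CD44lo/CD25+, J1 embryonic stem (ES) cells grown off their feeders, and the immature T cell line P5424 in 4 states. These states were wt and ΔIkE120 cells, each unstimulated or after 6 h with 20 µg/ml PMA and 0.5 µg/ml ionomycin. ΔIkE120 is 1 clone with a homozygous CRISPR/Cas9 deletion, all P5424 libraries share 1 line, and the nuclei of ES cells got a milder SDS step, cooler and more dilute, than those of DN3 and P5424 cells. That step and the cell type cannot be told apart. DN3 and the 4 P5424 libraries are called lymphoid below. 4C counts hold no cell type markers, so the labelled identities were not checked.

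4C-seq counts the fragments that were ligated to a chosen bait after crosslinking, and ligation falls steeply with distance along the chromosome. *Grb10*, the gene whose start borders the flank, is imprinted and encodes an adaptor that dampens insulin and growth factor signalling. *Cobl*, the large gene in the middle of the flank, encodes Cordon-bleu, a nucleator of actin filaments that is best known from neurons.

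The files held 1788106 reads on chromosome 11 for DN3, 3448437 for ES, 2025891 for wt unstimulated, 1756688 for wt PMA/ionomycin, 3943018 for ΔIkE120 unstimulated and 2721320 for ΔIkE120 PMA/ionomycin cells. Each condition has 1 library, so no spread between replicates, p-value or SD can be given. The intervals below are exact binomial (Clopper-Pearson) 95% intervals for shares and counting intervals on the log scale for ratios. They cover counting error only, since reads of a fragment are PCR copies without molecular identifiers. For that reason the main measure was the covered share, the percent of fragments with at least 1 read.

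ES cells covered the larger part of the flank, and no lymphoid library came close. The covered share was 6.58% in DN3 (106 fragments, 95% interval 5.42 to 7.90%) and 53.6% in ES (864 fragments, 51.2 to 56.1%). Among P5424 cells it was 8.63% in wt unstimulated (139 fragments, 7.30 to 10.1%) and 5.21% in wt PMA/ionomycin cells (84 fragments, 4.18 to 6.42%). It was 16.4% in ΔIkE120 unstimulated (265 fragments, 14.7 to 18.4%) and 18.1% in ΔIkE120 PMA/ionomycin cells (291 fragments, 16.2 to 20.0%). The intervals of DN3 and wt unstimulated cells overlapped, as did those of DN3 and wt PMA/ionomycin cells and those of both ΔIkE120 libraries. The ES share was 2.97 times that of the highest and 10.3 times that of the lowest lymphoid library. With every library thinned to 1706371 reads, the smallest total over the fragments listed in all files, the expected shares were 6.58% in DN3, 51.9% in ES, 8.51% and 5.21% in wt, and 16.0% and 17.7% in ΔIkE120 cells.

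As log2 ratios of covered shares, DN3 against ES gave -3.03 (-3.30 to -2.75), and wt unstimulated P5424 against DN3 gave 0.39 (0.04 to 0.74). ΔIkE120 against wt gave 0.93 (0.65 to 1.21) in unstimulated and 1.79 (1.46 to 2.13) in PMA/ionomycin cells. PMA/ionomycin against unstimulated gave -0.73 (-1.10 to -0.35) in wt and 0.14 (-0.08 to 0.35) in ΔIkE120 cells. Only the interval of the last ratio held 0.

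By raw reads ES was again highest and both ΔIkE120 libraries next, while the order of the other 3 libraries differed from that by covered share. The flank received 11837 reads in DN3, 300407 in ES, 20746 in wt unstimulated, 19306 in wt PMA/ionomycin, 69318 in ΔIkE120 unstimulated and 58711 in ΔIkE120 PMA/ionomycin cells. Of each library's chromosome 11 reads outside 15 kb of the bait, this was 0.776% in DN3, 9.70% in ES, 1.19% and 1.27% in wt, and 2.07% and 2.70% in ΔIkE120 cells. DN3 was lowest, and wt PMA/ionomycin cells, lowest by covered share, were above wt unstimulated cells. The log2 ratio of these read shares was -3.64 for DN3 against ES and 0.62 for wt unstimulated cells against DN3. It was 0.80 and 1.09 for ΔIkE120 against wt, unstimulated and PMA/ionomycin respectively, and 0.09 in wt and 0.38 in ΔIkE120 cells for PMA/ionomycin against unstimulated. In wt cells, PMA/ionomycin thus went with fewer covered fragments but no smaller share of reads.

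Reads were unevenly spread over the covered fragments, most of all in the libraries with few of them. Of the flank's reads, 50% lay on 7 fragments in DN3, 6 in wt unstimulated and 6 in wt PMA/ionomycin cells, against 30 and 28 in the ΔIkE120 libraries and 88 in ES. The median number of reads on a covered fragment was 21 in DN3, 112 in ES, 27 in wt unstimulated, 95 in wt PMA/ionomycin, 77 in ΔIkE120 unstimulated and 70 in ΔIkE120 PMA/ionomycin cells. More than 1000 reads were found on 86 fragments in ES, on 18 and 12 in ΔIkE120 cells and on 4 or fewer in each of the other lymphoid libraries. A single fragment, described below, held 32.3% of the flank's reads in wt unstimulated cells. Without the strongest fragment of each library, the log2 read share ratio of ΔIkE120 against wt in unstimulated cells was 1.32 in place of 0.80, that of wt unstimulated cells against DN3 was 0.26 in place of 0.62, and that of PMA/ionomycin against unstimulated wt cells was 0.42 in place of 0.09. On fragments with a unique end only, a set defined below and chosen after seeing the data, the same 3 ratios were 1.36, 0.0043 and 0.61. Read share ratios that involve wt unstimulated cells thus depended strongly on which fragments were counted.

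Averaged over long stretches, lymphoid coverage was far lower beyond the near edge of the flank than before it. From 200 kb to the edge, a stretch that holds *Grb10*, the covered share was 66.3% in DN3, 87.0% in ES, 50.4% and 38.9% in wt and 55.0% and 56.8% in ΔIkE120 cells. From the edge to 500 kb it was 10.9% in DN3, 50.9% in ES, 8.77% and 8.29% in wt and 14.5% and 18.2% in ΔIkE120 cells. ES fell too, but stayed far above the lymphoid libraries. Fragments with a unique end made up 91.9% of the stretch before the edge and 66.6% of that beyond it. Among them, the share went from 67.4% to 15.7% in DN3 and from 88.7% to 73.0% in ES. It went from 51.7% to 12.8% in wt unstimulated and from 39.2% to 12.1% in wt PMA/ionomycin cells. In ΔIkE120 cells it went from 56.7% to 20.6% unstimulated and from 58.6% to 24.9% with PMA/ionomycin. At the edge itself no common step was seen. In the last 20 kb before it (32 fragments), DN3 covered 43.8%, ES 93.8%, wt 31.2% and 28.1% and ΔIkE120 cells 28.1% and 37.5%. In the first 20 kb inside it (53 fragments), DN3 covered 30.2%, ES 92.5%, wt 18.9% and 11.3% and ΔIkE120 cells 32.1% and 32.1%. ES and ΔIkE120 cells thus differed little across the bound, and DN3 and wt cells were lower inside it.

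At the far end coverage was low on both sides of the bound. The last 20 kb inside (52 fragments) had 1 covered fragment in DN3, 16 in ES, 3 and 1 in wt and 0 and 2 in ΔIkE120 cells. The next 20 kb outside (36 fragments) had 0 in DN3, 12 in ES, 0 and 2 in wt and 4 and 3 in ΔIkE120 cells. In between, not every library declined at each step. ES rose from 50.9% before 500 kb to 70.8% at 500 to 600 kb, or from 73.0% to 76.2% among fragments with a unique end, and then fell to 66.8%, 63.1%, 46.8% and 30.7% in steps of 100 kb. ΔIkE120 unstimulated cells rose from 14.5% to 40.1%, or from 20.6% to 45.3% among fragments with a unique end, and then fell to 23.0%, 15.3%, 9.79% and 2.59%, and ΔIkE120 PMA/ionomycin cells rose from 18.2% to 37.7% and ended at 5.93%. DN3 fell throughout, from 10.9% to 8.96%, 7.37%, 5.49%, 3.40% and 1.11%. In wt cells the same 6 steps gave 8.77%, 12.7%, 13.8%, 5.88%, 7.66% and 4.44% unstimulated and 8.29%, 6.13%, 7.37%, 2.75%, 3.40% and 1.85% with PMA/ionomycin. Between 1000 and 1500 kb ES still covered 22.5%, against 1.57% in DN3.

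The annotation (GENCODE M1, mm9) places few genes here. *Grb10* (ENSMUSG00000020176, chr11:11830511-11938686, minus strand) ends with its start at the near edge, and *Cobl* (ENSMUSG00000020173, chr11:12136611-12364963, minus strand) spans 228 kb, from 553 to 781 kb from the bait. The only other protein-coding model inside is the 200-base Gm17624 at chr11:12548080-12548279. The U1 snRNA model near the edge, the pseudogene Gm12001, the transcript Gm12002 inside *Cobl* and the snoRNA ACA64 make up the rest. The next protein-coding gene is *Vstm2a*, whose start lies 3574 kb beyond the far edge.

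By genes the flank falls into 3 stretches. In the 198 kb between *Grb10* and *Cobl* (544 fragments) the covered share was 10.5% in DN3, 54.8% in ES, 9.38% and 7.35% in wt and 21.0% and 23.0% in ΔIkE120 cells. Over *Cobl* (505 fragments) it was 7.13% in DN3, 67.5% in ES, 11.3% and 5.94% in wt and 22.4% and 23.0% in ΔIkE120 cells. Beyond *Cobl* (562 fragments) it was 2.31% in DN3, 40.0% in ES, 5.52% and 2.49% in wt and 6.76% and 8.90% in ΔIkE120 cells. DN3 and wt PMA/ionomycin cells fell at each step away from the bait, while ES was higher over the gene than before it, with a log2 ratio of 0.30 (0.16 to 0.44). This order in ES did not hold among fragments with a unique end. Of fragments with at least 1 end that is unique in the genome (36 bases from the GATC), ES covered 73.8% before, 70.0% over and 52.5% beyond *Cobl*, and the log2 ratio of over to before was -0.076 (-0.20 to 0.05). On these fragments the ratio was -0.88 (-1.45 to -0.30) in DN3. It was -0.069 (-0.59 to 0.45) in wt unstimulated and -0.80 (-1.48 to -0.12) in wt PMA/ionomycin cells. In ΔIkE120 cells it was -0.32 (-0.65 to 0.01) unstimulated and -0.36 (-0.69 to -0.03) with PMA/ionomycin.

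The log2 ratio of DN3 against ES became more negative along the flank, from -2.39 (-2.76 to -2.02) between the genes to -3.24 (-3.71 to -2.78) over *Cobl* and -4.11 (-4.90 to -3.32) beyond it. ΔIkE120 against wt in unstimulated cells was 1.16 (0.72 to 1.60) between the genes, 0.99 (0.56 to 1.41) over *Cobl* and 0.29 (-0.37 to 0.96) beyond it, where its interval held 0. In PMA/ionomycin cells the same ratio was 1.64, 1.95 and 1.84, and no interval held 0. By share of reads, ΔIkE120 against wt gave 1.70, 0.27 and 0.96 unstimulated and 1.09, 1.53 and -0.017 with PMA/ionomycin. Single fragments weighed heavily here. In wt unstimulated cells 1 fragment held 6701 of the 13910 reads over *Cobl*, and in wt PMA/ionomycin cells 1 held 2481 of the 4615 beyond it. Without the strongest fragment of each library in each stretch, an alternative chosen after seeing the data, the ratios were 1.90, 1.12 and 1.33 unstimulated and 1.35, 2.12 and 0.71 with PMA/ionomycin.

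In the 20 kb centred on the start of *Cobl* (53 fragments), ES covered 69.8% with 15083 reads. There DN3 had 5.66% and 29 reads, wt unstimulated cells 1.89% and 270 reads, and wt PMA/ionomycin cells 3.77% and 378 reads. ΔIkE120 cells covered 13.2% both unstimulated and with PMA/ionomycin, with 1263 and 464 reads. Around the start of *Grb10*, measured the same way (52 fragments), ES covered 92.3% and the lymphoid libraries between 15.4% and 38.5%.

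Counted from the bait, the flank spans 33 tiles of 20 kb, the first cut short by the edge of *Grb10*. A covered fragment was present in at least 3 of the 5 lymphoid libraries in 32 of the 33 tiles, against 39.8% of all tiles of the chromosome, and in all 5 in 28 tiles. ES had reads in all 33 tiles. No tile had reads in ES alone, which allows a share of up to 9.09%, and over the chromosome 5.17% of tiles did. No tile was without a covered fragment in every library. The tile with the fewest lymphoid libraries, chr11:12523521-12543520, had reads only in ES and both ΔIkE120 libraries, with 11, 3 and 3 covered fragments of 70.

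Tiles without a read numbered 3 in DN3, 1 in wt unstimulated, 4 in wt PMA/ionomycin, 1 in ΔIkE120 unstimulated and 0 in ΔIkE120 PMA/ionomycin cells. Cell types differed more in how much of a tile was covered. ES exceeded every lymphoid library in 33 of 33 tiles. Its covered share per tile ran from 15.2% to 94.1% with a median of 60.0%. The medians were 5.66% in DN3, 8.00% in wt unstimulated, 4.48% in wt PMA/ionomycin, 14.9% in ΔIkE120 unstimulated and 15.5% in ΔIkE120 PMA/ionomycin cells. Both ΔIkE120 libraries exceeded both wt libraries in 22 tiles, and the reverse held in 1. Neither this count nor that of ES was made over all tiles of the chromosome. The ΔIkE120 libraries are deeper and cover more of the whole flank than the wt libraries, which favours the 22. No difference beyond coverage is thus read from these counts.

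The tile with the most covered fragments over the lymphoid libraries, 63 in sum, was chr11:12123521-12143520, which holds the 3′ end of *Cobl*. Of its 51 fragments 6 were covered in DN3, 34 in ES, 4 and 2 in wt and 22 and 29 in ΔIkE120 cells, so most of the sum came from the deletion clone. The next tile, chr11:12183521-12203520 inside *Cobl*, had 8 of 43 in DN3, 36 in ES, 11 and 7 in wt and 17 and 15 in ΔIkE120 cells. It was the highest tile of wt unstimulated cells by this share, at 25.6%. In chr11:11943521-11963520, close to *Grb10*, 10 of 49 were covered in DN3, 45 in ES, 7 and 6 in wt and 13 and 17 in ΔIkE120 cells. This tile led in ES by covered fragments as well, and its 23401 ES reads were the most of any tile in any library.

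After it, ES covered the most fragments in chr11:12343521-12363520 (38 of 50), chr11:12283521-12303520 (37 of 58) and chr11:12063521-12083520 (37 of 55). In the first of these, which lies just inside the start of *Cobl*, the lymphoid libraries covered 4, 4, 1, 6 and 7 fragments in the order DN3, wt unstimulated, wt PMA/ionomycin, ΔIkE120 unstimulated and ΔIkE120 PMA/ionomycin. By reads, the next tiles were also of ES, with 15909 at chr11:12303521-12323520 and 15241 at chr11:12223521-12243520. In the former DN3 had 1282 reads, of which 1281 lay on a single fragment.

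The lowest ES tiles differed in how many fragments have a unique end. In chr11:12023521-12043520, where the pseudogene Gm12001 lies, ES covered 12 of 79 fragments (15.2%), and only 16 fragments (20.3%) had a unique end. Among those 16, ES covered 68.8%. In chr11:12523521-12543520, 50.0% of fragments had a unique end and ES covered 25.7% of these, still the lowest share of any tile.

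Both ΔIkE120 libraries covered more than 25% of the fragments in the tiles of chr11:11938687-11983520, close to *Grb10*. They also did so in chr11:12183521-12203520 and chr11:12263521-12283520 inside *Cobl*. The longest run of such tiles was 4 neighbouring ones around the 3′ end of *Cobl*. This run, chr11:12083521-12163520 at 500 to 580 kb from the bait, was picked after its values were seen, so its shares are a description. Of its 173 fragments, ΔIkE120 unstimulated cells covered 74 (42.8%, 35.3 to 50.5%) and ΔIkE120 PMA/ionomycin cells 73 (42.2%, 34.7 to 49.9%). DN3 covered 14 (8.09%), wt unstimulated cells 22 (12.7%, 8.14 to 18.6%), wt PMA/ionomycin cells 8 (4.62%, 2.02 to 8.91%) and ES 122 (70.5%). The run held 33.5% and 30.7% of the flank's reads in ΔIkE120 cells, against 13.6% and 6.02% in wt, 9.26% in DN3 and 13.2% in ES. Outside it, the remaining 1438 fragments were covered at 13.3% and 15.2% in ΔIkE120 and at 8.14% and 5.29% in wt cells. ΔIkE120 exceeded wt there as well, with log2 ratios of 0.71 (0.39 to 1.02) unstimulated and 1.52 (1.16 to 1.88) with PMA/ionomycin.

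Both ΔIkE120 libraries were deeper than their wt partners, by 1.95 times unstimulated and 1.55 times with PMA/ionomycin, and come from 1 clone. After thinning, the log2 ratios of the whole flank were 0.91 and 1.76. In ΔIkE120 cells thinning left an expected 257 of 265 covered fragments unstimulated and 285 of 291 with PMA/ionomycin. Reads of a fragment are PCR copies, so thinning does not make the number of ligation events equal. Whether another clone or another 4C preparation would give this difference was not tested.

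PMA/ionomycin went with a lower covered share in most tiles in wt cells, and not in ΔIkE120 cells. In wt cells the stimulated library was lower in 21 tiles, higher in 5 and equal in 7, and in ΔIkE120 cells it was higher in 16, lower in 13 and equal in 4. In wt the log2 ratio was -0.35 (-0.92 to 0.22) between *Grb10* and *Cobl*, -0.93 (-1.54 to -0.31) over *Cobl* and -1.15 (-2.04 to -0.25) beyond it. The log2 read share ratios were 0.91, -0.80 and 1.27, and 0.87, -0.58 and 0.79 without the strongest fragment of each library in each stretch. The fragments with 6701 and 2481 reads named above enter the last 2, so their sizes are uncertain. In ΔIkE120 cells the ratio of covered shares was 0.13, 0.04 and 0.40, each with an interval that held 0. The wt libraries also differed outside the flank. The same ratio was -0.32 in the mirrored upstream interval, -0.37 from 200 kb downstream to the edge and -0.10 for fragments over 10 Mb away.

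Most single fragments were covered in 1 lymphoid library or in none, while each of these libraries covered only 5.21 to 18.1% of the flank. Of the 1611 fragments, 1007 were covered in no lymphoid library, 380 in 1, 177 in 2, 38 in 3, 8 in 4 and 1 in all 5. At least 3 of 5 were reached by 47 fragments (2.92%), against 0.58% over the chromosome. Some of these counts rest on single reads, and 30 fragments reached it with at least 3 reads and 26 with at least 10. In the upstream interval at the same distances, 112 of 1646 fragments (6.80%) had a read in at least 3 of 5, a larger share than in the flank. At least 2 of 5 were reached by 224 of the flank's 604 fragments covered in any lymphoid library. That count was not made over the chromosome, so it has no background beside it. Of the 47 in at least 3 libraries, 25 lay between *Grb10* and *Cobl*, 20 over *Cobl* and 2 beyond it, and 17 of the 33 tiles held at least 1. The tile chr11:12183521-12203520 held 8, the most.

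ES alone covered 419 fragments (26.0%), against 2.24% over the chromosome and 12.0% in the upstream interval at the same distances. Every tile held such fragments, from 3 to 24 per tile with a median of 13. Their share was 19.5% between *Grb10* and *Cobl*, 32.9% over *Cobl* and 26.2% beyond it. In these stretches 386 of 544, 464 of 505 and 415 of 562 fragments had a unique end, as did 95.9% of those of ES alone. The part of unique ends in this order was not tested. Fragments of ES alone had a median of 106 ES reads. For fragments covered in ES and in lymphoid libraries the median rose with the number of these, from 68 reads with 1 library (258 fragments) to 181 with 2 (145) and 310 with 3 (33), and was 123 over all 445. The reverse class, covered in a lymphoid library but not in ES, held 159 fragments (9.87%), and 588 (36.5%) were covered in no library. For neither class was the share over the chromosome counted, so whether it is particular to the flank is not known.

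Most fragments covered in a lymphoid library were covered in ES, which covers 53.6% of the flank. Of the covered fragments, 81.1% in DN3, 73.4% in wt unstimulated, 82.1% in wt PMA/ionomycin, 78.5% in ΔIkE120 unstimulated and 75.3% in ΔIkE120 PMA/ionomycin cells were covered in ES too. Overlaps between lymphoid libraries are read beside the far lower share of the flank that each of them covers. Both ΔIkE120 libraries shared 91 fragments, 34.3% of the unstimulated library's, beside 18.1% of the whole flank covered in the stimulated library. Both wt libraries shared 14, or 10.1% of the unstimulated library's, beside 5.21% of the whole flank. DN3 and wt unstimulated cells also shared 14, or 13.2% of the DN3 fragments, beside 8.63% of the whole flank. DN3 shared 16 (15.1%) with wt PMA/ionomycin and 33 (31.1%) with ΔIkE120 unstimulated cells, beside 5.21% and 16.4%. Wt unstimulated cells shared 49 (35.3%) with ΔIkE120 unstimulated cells, beside 16.4% of the whole flank. The share covered in ES rose with the number of lymphoid libraries, from 41.6% of fragments with none to 67.9% with 1, 81.9% with 2 and 86.8% with 3, and all 9 fragments in 4 or 5 lymphoid libraries were covered in ES. The percent of fragments with a unique end moved with it, from 69.2% with no lymphoid library to 93.4% with 1 and 94.9% with 2, as did the median length of 227, 337 and 369 bases, and their part in the rise was not tested. In both ΔIkE120 libraries but neither wt library there were 67 fragments, and the reverse held for 5. The ΔIkE120 libraries cover more of the flank, 16.4% and 18.1% against 8.63% and 5.21% in wt cells, which favours the first count. These counts were not made over the chromosome, so no difference beyond coverage is read from them.

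The only fragment covered in all 6 libraries lies in an intron of *Cobl*, at chr11:12187695-12188795, 605 kb from the bait. It had 56 reads in DN3, 594 in ES, 101 in wt unstimulated, 60 in wt PMA/ionomycin, 319 in ΔIkE120 unstimulated and 314 in ΔIkE120 PMA/ionomycin cells. It was thus highest in ES, with both ΔIkE120 libraries next. Its neighbour at chr11:12187071-12187698 had 106 reads in DN3, 634 in ES, 0 and 295 in wt and 501 and 730 in ΔIkE120 cells. At chr11:12182966-12183459 there were 0 in DN3, 352 in ES, 96 and 140 in wt and 653 and 32 in ΔIkE120 cells. The long fragment chr11:12183964-12186498 (2535 bases) had only 5 reads in DN3 and 28 in ES, with 95 and 0 in wt and 261 and 16 in ΔIkE120 cells. The midpoints of these 4 fragments lie from 599.7 to 604.7 kb from the bait.

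Another 5 fragments were covered in 4 lymphoid libraries and in ES. Inside *Cobl*, chr11:12199430-12199797 had no read in DN3, 63 in ES, 12 and 251 in wt and 318 and 2274 in ΔIkE120 cells, the latter far above the rest. Also inside *Cobl*, chr11:12273775-12274415 had 236 in DN3, 728 in ES, 29 and 0 in wt and 426 and 118 in ΔIkE120 cells. Between the genes, chr11:11948133-11948335 had 251 in DN3, 828 in ES, 217 and 0 in wt and 720 and 1 in ΔIkE120 cells. Stimulated cells of both genotypes were at or near 0 there. At chr11:11962040-11962460 DN3 had 1 read, ES 799, wt 0 and 165 and ΔIkE120 cells 22 and 389. At chr11:11987365-11987709 all counts were low, from 0 in DN3 to 27 in ΔIkE120 unstimulated cells, with 2 in ES. Of these 9 fragments all had 2 unique ends and 7 held a Csp6I site.

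Among fragments of at most 300 bases, the following 6 were among those covered in the most libraries. They are shown as short pieces of the flank that were read in several cell types or states. That at chr11:11948133-11948335 was covered in 5 libraries and each of the rest in 4. They are not alone at that level, since 33 fragments of any length were covered in ES and 3 lymphoid libraries. Each is the plus strand of mm9 from GATC to GATC, with GATC and the Csp6I site GTAC in capitals. The fragment between the genes at chr11:11948133-11948335 is the one described above. Inside *Cobl*, that at chr11:12299686-12299912 had 0 reads in DN3, 1308 in ES, 1 and 2761 in wt and 1396 and 0 in ΔIkE120 cells. Between the genes, chr11:12102902-12102973 had 0, 1497, 148, 0, 562 and 91 reads in the order DN3, ES, wt unstimulated, wt PMA/ionomycin, ΔIkE120 unstimulated and ΔIkE120 PMA/ionomycin. The remaining 3 had no read in DN3. At chr11:12158912-12158994 there were 56 in ES, 89 and 0 in wt and 654 and 406 in ΔIkE120 cells. At chr11:12186943-12187074 there were 588 in ES, 174 and 0 in wt and 1 and 200 in ΔIkE120 cells. At chr11:11945058-11945150 there were 692 in ES, 184 and 1 in wt and 0 and 85 in ΔIkE120 cells. Of the 6, 3 held a GTAC site.
chr11:11948133-11948335: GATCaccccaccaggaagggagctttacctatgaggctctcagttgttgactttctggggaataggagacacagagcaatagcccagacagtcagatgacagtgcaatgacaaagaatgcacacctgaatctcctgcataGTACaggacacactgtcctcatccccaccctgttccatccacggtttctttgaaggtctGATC
chr11:12299686-12299912: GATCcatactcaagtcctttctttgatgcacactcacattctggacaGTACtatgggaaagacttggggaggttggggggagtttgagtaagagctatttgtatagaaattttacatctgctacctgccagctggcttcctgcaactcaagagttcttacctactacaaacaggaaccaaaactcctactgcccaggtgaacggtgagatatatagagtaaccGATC
chr11:12102902-12102973: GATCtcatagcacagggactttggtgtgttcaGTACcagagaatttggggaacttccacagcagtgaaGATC
chr11:12158912-12158994: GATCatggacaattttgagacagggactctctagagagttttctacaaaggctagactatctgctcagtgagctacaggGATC
chr11:12186943-12187074: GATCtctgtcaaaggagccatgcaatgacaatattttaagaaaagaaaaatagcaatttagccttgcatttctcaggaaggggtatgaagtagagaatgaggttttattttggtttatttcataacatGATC
chr11:11945058-11945150: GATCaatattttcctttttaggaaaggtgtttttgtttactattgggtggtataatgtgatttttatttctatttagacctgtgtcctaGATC

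The strongest fragments differed between libraries. In wt unstimulated cells it was chr11:12176146-12176154 in an intron of *Cobl*, with 6701 reads, against 1 in wt PMA/ionomycin, 441 in ΔIkE120 unstimulated and 0 in the other libraries. This fragment is 9 bases long, the shortest of the flank, and is shorter than the 36 bases by which an end was called unique. In DN3 the strongest was chr11:12007827-12007986 between the genes, with 1509 reads and 0 in every other library. The next in DN3, chr11:12320119-12320470 in *Cobl*, had 1281 reads there, 3938 in ES, 66 in ΔIkE120 unstimulated and 0 in the remaining libraries. The third, chr11:11951484-11952288, had 903 reads in DN3, 1753 in ES, 1987 and 608 in ΔIkE120 cells and none in wt cells. Of these 3, DN3 shared none with wt P5424 cells.

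In ES the strongest fragment, chr11:11983613-11984014, had 4361 reads, only 1.45% of its flank reads, with 253 in wt PMA/ionomycin and 642 in ΔIkE120 unstimulated cells. The next, chr11:12437272-12437332 beyond *Cobl*, had 4006 in ES and 0 elsewhere. In wt PMA/ionomycin cells the top fragment was chr11:12299686-12299912, given above, with 14.3% of that library's flank reads. It was followed by chr11:12435288-12435422, with 2481 reads there, 2591 in ES and 6 in ΔIkE120 PMA/ionomycin cells, and by chr11:12070355-12071463, with 1666 reads there and 15 in ES. Thus the top 3 of wt PMA/ionomycin cells had 1, 0 and 0 reads in wt unstimulated cells.

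Of the next 2 in wt unstimulated cells, chr11:12261942-12262158 had 907 reads, with 530 in ES and 1269 in ΔIkE120 unstimulated cells, and chr11:12092026-12092632 had 890, with 748 and 1180 in ΔIkE120 cells and 0 in ES. In ΔIkE120 unstimulated cells chr11:12119430-12119861 led with 2054 reads, beside 1442 in ES and 166 in ΔIkE120 PMA/ionomycin cells, and chr11:12163048-12163935 had 1906, beside 1272 in ES. In ΔIkE120 PMA/ionomycin cells chr11:12138830-12139417 led with 2575 reads, beside 461 in ΔIkE120 unstimulated cells and 348 in ES. Another of its strongest, chr11:12137656-12137704, is 49 bases long, overlaps an exon of *Cobl* and had 2259 reads, with 2 in wt unstimulated cells and 0 elsewhere.

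In every library, coverage went with whether a fragment's ends are unique in the genome. Fragments with no unique end (346) were covered at 0.578% in DN3, 10.4% in ES, 2.60% and 1.45% in wt and 3.18% and 6.36% in ΔIkE120 cells. Of these 346, 126 were shorter than 36 bases and fall in this class by length alone, whatever their sequence. ES covered 31 of these 126 and 36 of all 346, so the class is not uniform, and having no unique end is not the same as being unmappable. With 2 unique ends (1119 fragments) the shares were 8.76% in DN3, 69.8% in ES, 10.7% and 6.52% in wt and 21.6% and 22.9% in ΔIkE120 cells. All libraries were lower on fragments without a unique end, and the order of the libraries with 2 unique ends was that of the whole flank. Of the 588 fragments covered in no library, 293 (49.8%) had no unique end, against 4.06% of those covered in ES alone.

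Fragments over 800 bases were covered more often than those up to 100 bases in every library, though only some libraries rose at each step between. ES covered 37.8% of fragments up to 100 bases (373), 52.5% of those above 100 and up to 400, 63.6% of those above 400 and up to 800 and 67.1% of those over 800 bases (222). In DN3 the shares were 3.75%, 6.13%, 9.09% and 8.56%, and in ΔIkE120 unstimulated cells 11.8%, 13.9%, 23.1% and 20.7%. In wt unstimulated cells they were 6.43%, 9.65%, 7.44% and 11.3%. Fragments without a unique end had a median length of 84.5 bases, and those with one 338. This difference is in part set by definition. Of the 346 fragments without a unique end, 126 were placed there by their short length alone. How far length and unique ends are linked beyond that was not tested. Fragments with a Csp6I site were covered at 58.2% in ES, against 49.8% without, at 19.8% against 13.7% in ΔIkE120 unstimulated cells and at 6.83% against 6.37% in DN3. Among fragments with a unique end the shares were 66.9% against 64.0% in ES, 22.9% against 17.3% in ΔIkE120 unstimulated cells and 7.89% against 8.56% in DN3, so the ES difference was smaller and that in DN3 turned. By base composition, all libraries but DN3 were highest at 40 to 45% GC. ES covered 53.7% of fragments under 40% GC, 56.8% of those from 40 to 45% and 50.1% of those above, wt cells 8.44%, 10.5% and 6.86% unstimulated and 5.68%, 6.23% and 3.53% with PMA/ionomycin. ΔIkE120 cells covered 15.1%, 17.5% and 17.0% unstimulated and 18.8%, 20.2% and 14.8% with PMA/ionomycin, and DN3 6.66%, 6.03% and 7.07%.

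Of the 505 fragments with a midpoint in *Cobl*, 40 overlapped an exon. These were covered at 5.00% in DN3, 67.5% in ES, 12.5% and 2.50% in wt and 47.5% (31.5 to 63.9%) in ΔIkE120 unstimulated cells. In ΔIkE120 PMA/ionomycin cells 10 of them were covered (12.7 to 41.2%). Fragments of introns alone (465) were covered at 7.31% in DN3, 67.5% in ES, 11.2% and 6.24% in wt and 20.2% and 22.8% in ΔIkE120 cells. Exons and introns were alike in ES, and ΔIkE120 unstimulated cells were higher on exons. That difference was also present outside the run around the 3′ end, where 11 of 24 exon fragments (45.8%, 25.6 to 67.2%) and 18.8% of intron fragments were covered in these cells. In the stimulated clone the exon fragments outside the run were at 16.7% and the intron fragments at 20.2%.

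Set against fragments over 10 Mb from the bait, the flank was covered more often in every library. Remote fragments (248387) were covered at 1.65% in DN3, 1.50% in ES, 1.18% and 1.10% in wt and 1.25% and 1.47% in ΔIkE120 cells. These shares were closer to each other than those of the flank, but differed too: the log2 ratio of wt unstimulated cells against DN3 was -0.48 (-0.55 to -0.42) there, opposite in sign to 0.39 in the flank, and that of ΔIkE120 against wt with PMA/ionomycin was 0.42 (0.34 to 0.49). The flank's covered share was 3.99 times the remote share in DN3 (3.31 to 4.80), 35.8 times in ES (33.9 to 37.8), 7.31 times in wt unstimulated (6.21 to 8.61) and 4.75 times in wt PMA/ionomycin cells (3.84 to 5.86). In ΔIkE120 cells it was 13.2 times (11.7 to 14.8) unstimulated and 12.3 times (11.1 to 13.7) with PMA/ionomycin. These ratios depend on the background. Against fragments at 1 to 10 Mb they were 1.34 in DN3, 5.94 in ES, 1.69 and 1.42 in wt, and 3.30 and 3.75 in ΔIkE120 cells, where the order of the last 2 turned.

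The interval at the same distances upstream (chr11:10583520-11228353, 1646 fragments) differed from the flank in a way that varied with library and distance. It was covered at 9.11% in DN3, 35.7% in ES, 14.6% and 11.7% in wt and 15.9% and 16.6% in ΔIkE120 cells. The log2 ratio of the flank to it was -0.47 (-0.81 to -0.13) in DN3, 0.59 (0.47 to 0.70) in ES, -0.76 (-1.04 to -0.47) in wt unstimulated and -1.16 (-1.52 to -0.81) in wt PMA/ionomycin cells. In ΔIkE120 cells it was 0.05 (-0.18 to 0.27) and 0.12 (-0.10 to 0.33). These ratios average over steps that differ. From 355 to 500 kb every library was higher upstream, at 23.9% in DN3, 62.9% in ES, 35.4% in wt unstimulated cells and 29.5% and 31.7% in ΔIkE120 cells, and with 89 of 356 fragments in wt PMA/ionomycin cells. From 500 to 600 kb ES, at 40.3%, and ΔIkE120 cells, at 19.8% both unstimulated and stimulated, were lower upstream. DN3, at 8.42%, and wt unstimulated cells, at 12.5%, were about equal on both sides there, and wt PMA/ionomycin cells, at 12.8%, were higher upstream. From 600 to 700 kb DN3 was at 1.54% and wt unstimulated cells at 7.31% upstream, below their shares in the flank. ΔIkE120 cells were lower upstream there too, and wt PMA/ionomycin cells, at 8.46%, were higher. From 700 to 900 kb the lymphoid libraries went both ways. From 900 to 1000 kb all of them were higher upstream. There DN3 covered 5.91%, wt cells 7.59% and 5.91% and ΔIkE120 cells 8.86% and 8.44%. ES was higher downstream in every step beyond 500 kb. ΔIkE120 against wt was 0.13 (-0.11 to 0.36) in the upstream interval for unstimulated cells, below the interval of the flank's 0.93. In PMA/ionomycin cells it was 0.51 (0.27 to 0.76), against 1.79 in the flank. The share of fragments with a unique end was 78.5% in the flank and 76.5% upstream, but 66.6% against 85.7% from 355 to 500 kb. Among fragments with a unique end, ES covered 73.0% of that step in the flank and 68.5% upstream, so its order turned there.

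H3K27ac, a histone mark of active promoters and enhancers, was called in 34553 peaks in wt and 29902 in ΔIkE120 P5424 cells. The peak lists are in GRCm38 and were joined to the flank by gene symbol only (RefSeq, GRCm38.p6). Neither list had a peak over *Cobl* or *Grb10*, or between the starts of these genes, while 54.4% of protein-coding genes overlapped a peak in wt and 52.8% in ΔIkE120 cells. The nearest peaks lay in *Ddc*, 347 kb from *Cobl*, on the *Ikzf1* side in both lists, and 4042 kb away on the other side. Whether the cells of these lists were stimulated is not stated in the sources used, so they cannot be matched to 1 of the 4C states. No H3K27ac data of ES or DN3 cells were used here.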

How the data were processed

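The 4C-seq values are read counts per DpnII fragment of chromosome 11, which the authors deposited without normalization, 1 file per library, after removing the bait sequence with Sabre and mapping to mm9 with Bowtie. The submitters' processing notes list Bowtie 1.0.0, Bowtie2 2.3.4.3, MACS2 2.1.1 and deepTools 3.2.1 without roles, and GRCm38 as the only build. The H3K27ac peak lists that the authors deposited carry the caller's score, the fold over background, and p-values and q-values as -log10. Only peak positions were used here.

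All 295446 fragment positions matched midpoints of DpnII fragments in the mm9 sequence. Beside the bait, 2 fragments are not listed in every file and were dropped. Read shares leave out reads within 15 kb of the bait, and remote fragments lie over 10 Mb from it. Lymphoid coverage needed 3 of the 5 lymphoid libraries. A fragment end counted as unique when the 36 bases from its GATC occur once in the genome. Fragments shorter than 36 bases were thus counted as having no unique end. The use of unique ends as an alternative, the removal of the strongest fragment by stretch, and the run around the 3′ end of *Cobl*, were chosen after seeing the data. Thinning gave the expected number of covered fragments by exact calculation. Scripts ran in Python 3.11.15 with numpy 2.4.6, pandas 2.3.3 and scipy 1.17.1, and the intervals and the thinning were tested on simulated data.

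Named genes were all protein-coding genes in the flank and the nearest on either side. Named tiles were the 3 highest in summed lymphoid covered fragments, the 3 highest in ES with ties, and the 3 with the most reads in any 1 library. Named fragments were up to 10 covered in the most lymphoid libraries and the 3 with the most reads of each library. Sequences came from fragments of at most 300 bases covered in the most libraries. Members and lists were chosen with earlier results of these data known. Alternatives varied the reads that make a fragment covered, the fragments used, depth, denominators, background, tile size and grid, and the number of libraries.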

Additional observations from a re-analysis of the deposited data

Results flagged for a closer look

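PMA/ionomycin moved the covered share of the flank in opposite directions in the genotypes, which is what flagged it. The log2 ratio of stimulated to unstimulated cells was -0.73 in wt P5424 (8.63% to 5.21%) and 0.14 in ΔIkE120 P5424 cells (16.4% to 18.1%), where its interval held 0. The difference between the genotypes was not tested, since each state has 1 library. By share of reads, the stimulated library was higher in both genotypes, with log2 ratios of 0.09 and 0.38.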

How the results depend on the processing

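Of 135 recomputed values, 82 stayed within the counting interval, or within 1.5 times for counts, 48 moved and 5 changed sign. Of the 5, 4 came with fragments that have a unique end, an alternative added after seeing the data. There the log2 covered share over *Cobl* against before it was -0.076 in ES, in place of 0.30, -0.069 in wt unstimulated and -0.32 in ΔIkE120 unstimulated cells, and that with against without a Csp6I site was -0.12 in DN3. Of these 4, only for ES had the main interval not held 0. In ΔIkE120 PMA/ionomycin cells the first ratio was -0.36, and in ES the second was 0.063. Of 36 log2 ratios of covered shares, 4 moved. With at least 10 reads, DN3 against ES was -3.36 and ΔIkE120 against wt in unstimulated cells 1.25. As a share of the library's covered fragments outside 15 kb, DN3 against ES was -2.59 and ΔIkE120 against wt with PMA/ionomycin 1.38. Read share ratios have narrow intervals, and 19 of 24 moved. With all reads as denominator, DN3 against ES was -3.72, ΔIkE120 against wt with PMA/ionomycin 0.97 and PMA/ionomycin against unstimulated ΔIkE120 cells 0.30. With reads capped at the 99th percentile, the ratio was -3.57 for DN3 against ES, 0.49 for wt unstimulated cells against DN3, 0.92 for ΔIkE120 against wt unstimulated cells, and 0.16 in wt and 0.34 in ΔIkE120 cells for PMA/ionomycin against unstimulated. Without the strongest fragment of each library, the same ratios were -3.82, 0.26, 1.32, 0.42 and 0.36, and ΔIkE120 against wt with PMA/ionomycin was 1.25. On unique-end fragments the first 5 of these ratios were -3.61, 0.0043, 1.36, 0.61 and 0.34. By stretch, leaving out each library's strongest fragment there (also added after seeing the data) moved 7 of 9 read share ratios. Between *Grb10* and *Cobl*, over *Cobl* and beyond it, ΔIkE120 against wt was then 1.90, 1.12 and 1.33 unstimulated and 1.35, 2.12 and 0.71 stimulated, where the last had been -0.017 with an interval that held 0, and changed sign. PMA/ionomycin against unstimulated wt cells was -0.58 over and 0.79 beyond *Cobl*. Relative to fragments at 1 to 10 Mb in place of those over 10 Mb, by construction a closer background, the flank's share was 1.34 times in DN3, 5.94 in ES, 1.69 and 1.42 in wt, and 3.30 and 3.75 in ΔIkE120 cells. In ES the ratio to remote fragments was 41.4 with at least 3 reads, 46.8 with at least 10 and 37.9 after thinning. Tiles with reads in at least 3 lymphoid libraries numbered 59 of 65 at 10 kb and 17 of 17 at 40 kb, and there was no tile of ES alone under any setting. Fragments covered in at least 3 lymphoid libraries numbered 30 with at least 3 reads, 26 with at least 10 reads, 26 among fragments with a Csp6I site and 224 when 2 libraries sufficed, and ES alone covered 182 fragments with a Csp6I site. Stricter or smaller sets lower these fragment counts by construction, and the looser rule of 2 libraries raises them. The tile counts at 10 and 40 kb follow the number of tiles. For the other moved values the cause was not tested. The restriction to unique ends moved no log2 covered share ratio between libraries and no count of tiles or fragments, and the remote fragments were not searched for unique ends. With 1 library per condition there are no replicate pairs, so no replicate block was fitted, and ΔIkE120 was compared with wt within each state. At this depth, differences between DN3 and wt P5424 cells rested on 106 and 139 covered fragments, and the ratios cannot be separated from differences between single 4C preparations.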
